A study of Mus musculus with 4 samples.

Results

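Semaphorins and neuropilins were followed through 10 genes, the semaphorins Sema3a, Sema3c, Sema3d, Sema3f, Sema3g, Sema5a, Sema6a and Sema6d and the neuropilins Nrp1 and Nrp2. The members were all probe sets that the platform annotation pairs with 1 of these genes alone, which gave 30 probe sets for 10 of the 18194 genes so named. The array study compared whole mouse kidneys at stage E14.5 (Theiler stage 22, sex unknown) with 4 arrays. Each of the 2 wild-type arrays held RNA from 2 pooled kidneys with the strain given as CD-1. Each of the 2 mutant arrays held RNA from 12 pooled kidneys that carried the null allele Wnt4tm1Amc, with the strain given as 129. Wnt4 is a secreted signal without which mesenchyme does not turn into renal vesicles, the earliest nephron epithelium, and the design asks which genes are expressed there and in later nephron parts. The shared protocol text speaks of CD-1 matings for every array. Since genotype went together with the strain given and the number of kidneys pooled, the effects of these 3 on any value below cannot be told apart. The pools are labelled biological replicates, but litters are not named. A p-value here reflects only spread between pools, in part borrowed from other probe sets of similar level.

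Semaphorins are guidance proteins that share a sema domain. Those of class 3 are secreted and mostly bind neuropilins, which hold the ligand while a plexin passes the signal into the cell, whereas those of classes 4 to 6 sit in the membrane and bind plexins directly. Neuropilins also bind VEGF family growth factors. In the kidney these genes are known from the guidance of blood vessels and nerves, from branching of the ureteric bud and from podocytes.

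Values are the authors' signals on a linear scale. Differences are mutant minus wild-type on the scale log2(signal + 16), with a fold derived from them, and calls are limma tests with Benjamini-Hochberg adjustment over all 27022 tested probe sets at a threshold of 0.05. Probe sets in the lowest 40% by mean level were not tested. Wnt4 itself read 1885 and 1769.9 in wild-type and 406 and 272 in mutant kidneys at its brighter probe set (adjusted p = 0.000196). The progenitor gene Six2 read 2670.2 to 3759.5 over the 4 arrays. The ureteric bud gene Calb1 read 5479.5 and 5439 in wild-type and 3212 and 3070.3 in mutant kidneys (1.73-fold lower, adjusted p = 0.000727). Kidney markers were thus present in both groups. By the brightest probe set of each gene, Calb1 was the only lower gene of 8 tested on the ureteric bud list. Krt8 and Krt18 were higher there and 5 did not pass. Ret was among these 5 (limma adjusted p = 0.197), but a dimmer Ret probe set was lower. It read 436 and 446 in wild-type and 213 and 214 in mutant kidneys (1.99-fold lower, limma adjusted p = 0.00992). On the progenitor list 2 of 8 tested genes were lower, 2 were higher and 4, Six2 among them, did not pass. All gene lists here and below were chosen with earlier results of these data known, so their counts are descriptive. Among marker lists, stroma had 6 of 9 tested genes higher and skeletal muscle 7 of 7. Endothelium had 3 of 9 lower, podocytes 5 of 6 lower and the renal vesicle list 6 of 6 lower. Whole organs were measured, so fewer cells of a type and less RNA per cell cannot be told apart.

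Of the 30 member probe sets 26 were tested, 5 were higher and 2 lower in the mutant, and 19 did not pass. Over all tested probe sets, 10.8% passed in either direction, 5.39% lower and 5.41% higher. Sema3d and Sema3a rose at every tested probe set, Sema3g fell at its only probe set, Sema3f fell at 1 of 3, and Sema6d rose at 1 of 3. The neuropilins did not pass at any of their 7 tested probe sets. By the brightest tested probe set of each gene, 3 members were higher and 1 lower, against 12.5% of 13432 genes called in either direction. Wild-type and mutant signals did not overlap in 24 of the 26 member probe sets, against 54.1% of all tested probe sets, and in 9 of the 10 members by their brightest probe set, against 57.1% of tested genes. The members' median difference was 0.18, and the median without regard to sign was 0.45 against 0.22 over all tested probe sets. The members were proposed with results of these arrays in view, so these shares describe them and are not evidence about the family.

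**Figure D1:**
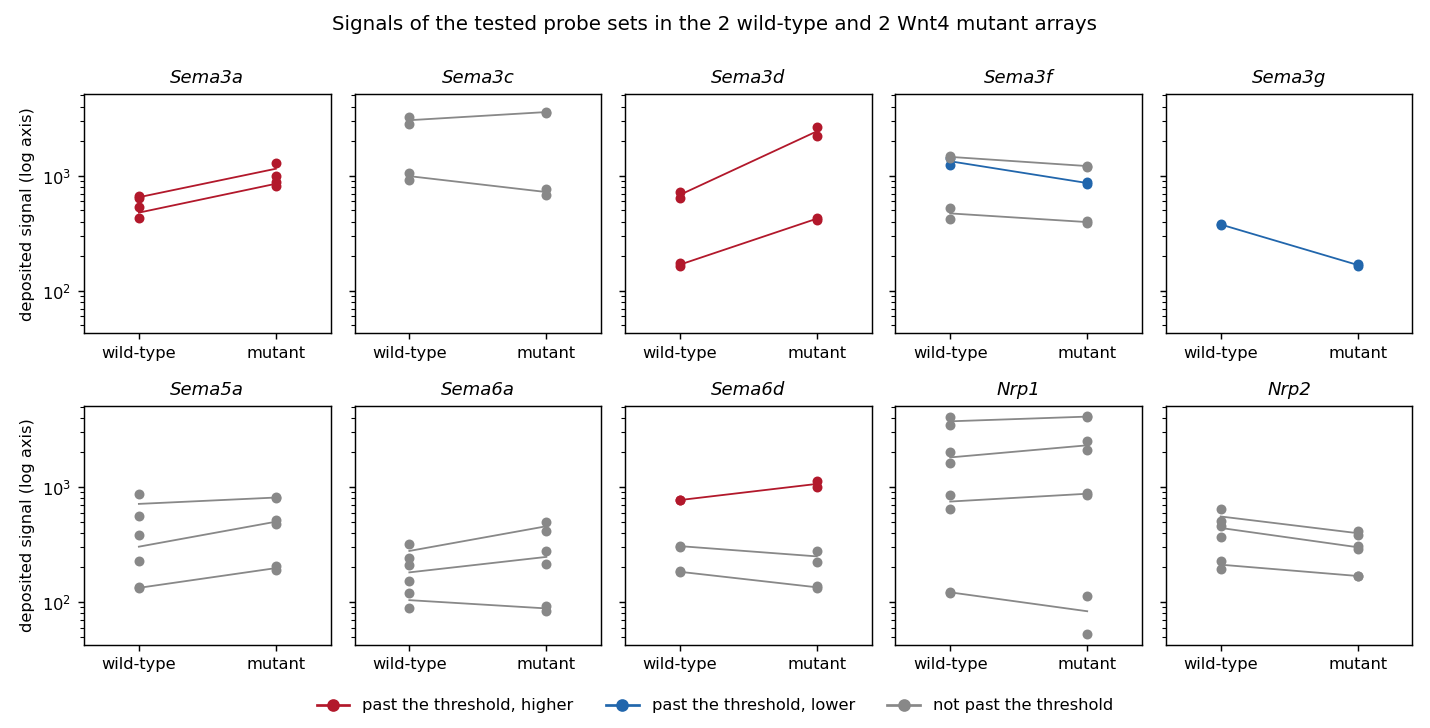
Deposited signal (vertical log axis, shared by all panels) of every tested member probe set on the 2 wild-type and 2 mutant arrays; points are arrays, lines join group means, and colour gives the limma call. Sema3d and Sema3a climb at every probe set shown, Sema3g drops, and lines of Sema3c, Sema6a, Sema6d and Nrp1 run in both directions.

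Among the secreted ligands, Sema3d changed most. Sema3d binds Nrp1 and takes part in the patterning of veins and of the heart's inflow. Its brighter probe set (1429459_at) read 718 and 648 in wild-type and 2651 and 2223 in mutant kidneys. Each mutant value lay above both wild-type values, and the gap within each group was small beside the gap between groups. The mean went from 683 ± 49.8 (SD, n = 2) to 2437 ± 303 (n = 2), a log2 difference of 1.81 ± 0.12 (SE) or 3.50-fold higher, with a limma adjusted p of 0.000112. Its difference ranked 50 from the top among the 13432 tested genes. The dimmer probe set (1453148_at) read 173 and 165 in wild-type and 415 and 433 in mutant kidneys, again without overlap. It gave a 2.38-fold higher level (log2 difference 1.25 ± 0.19, adjusted p = 0.00493). Each probe set stayed past the threshold under every alternative run for it, including the removal of any 1 array.

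Sema3a, a repellent of growing axons that also acts on endothelial cells and podocytes through Nrp1 and class A plexins, rose as well. The brightest probe set (1420416_at) read 642 and 662 in wild-type and 1000.4 and 1306 in mutant kidneys. The second (1449865_at) read 426 and 531 against 892 and 816. Neither overlapped between groups, and mutant replicate 2 was the higher mutant array in the first and the lower in the second. The folds were 1.74 and 1.77, with log2 differences of 0.80 ± 0.15 and 0.82 ± 0.15 and limma adjusted p-values of 0.0117 and 0.0115. The first call was lost without mutant replicate 2 (0.61, adjusted p = 0.0825), the second without mutant replicate 1 (0.76, adjusted p = 0.0612), and both without the intensity trend of the variance (adjusted p = 0.0938 and 0.0785). A further probe set (1420417_at) was too dim to be tested, with 28.9 and 52.6 in wild-type and 84.2 and 98.2 in mutant kidneys.

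Sema3d and Sema3a are neighbours on chromosome 5, with 0 protein-coding genes between their starts in RefSeq (GRCm38.p6). Next in order come Sema3e, after 3 further protein-coding genes, and Sema3c, after 15 more. Sema3e, which binds Plxnd1 without a neuropilin, is not a member; its brightest probe set read 165 and 159 in wild-type and 255 and 360.3 in mutant kidneys (log2 difference 0.84, 95% interval 0.30 to 1.38, adjusted p = 0.0584). It passed with quantile normalization (adjusted p = 0.0442) and with median-centred arrays (adjusted p = 0.0128). The next gene in the row behaved differently, as described for Sema3c below. Between Sema3e and Sema3c, Cacna2d1, a calcium channel subunit, read 623 and 534 against 760 and 1082 (adjusted p = 0.0589) and Hgf, the ligand of Met, 148 and 78.6 against 123 and 159 (adjusted p = 0.625), while Pclo, a protein of the synapse, read 159.6 and 124 against 99.8 and 80.0 (adjusted p = 0.288). Speer3, between Sema3a and Sema3e, read 206 and 147 against 157 and 189 (adjusted p = 0.984). None of these 4 genes passed. The 250 bases before the RefSeq starts of Sema3d (chr5:12382916-12383165, + strand) and Sema3a (chr5:13396534-13396783, + strand) are shown because these neighbours rose together, in GRCm38.p6, 5′ to 3′. Capitals mark the letters CTTTG, the core of the TCF/LEF motif, on either strand.
Sema3d: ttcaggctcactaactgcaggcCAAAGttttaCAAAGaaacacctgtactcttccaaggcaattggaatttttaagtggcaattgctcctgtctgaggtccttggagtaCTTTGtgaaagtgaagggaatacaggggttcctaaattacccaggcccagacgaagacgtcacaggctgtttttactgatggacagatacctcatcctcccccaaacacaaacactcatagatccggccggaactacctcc
Sema3a: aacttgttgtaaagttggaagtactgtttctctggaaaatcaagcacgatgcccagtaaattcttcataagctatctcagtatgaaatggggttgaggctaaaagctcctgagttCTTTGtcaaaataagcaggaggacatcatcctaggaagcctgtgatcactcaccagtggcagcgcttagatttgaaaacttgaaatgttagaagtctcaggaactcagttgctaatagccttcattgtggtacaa
The Sema3d window held 3 such matches and the Sema3a window 1, and 48.6% of all 32841 RefSeq windows of this length held at least 1. The G and C content was 46.8% for Sema3d and 40.8% for Sema3a, with 4 and 2 CG pairs, against medians of 52.4% and 6 over all windows. Neither window held TATAA or GGGCGG on either strand. RefSeq windows were used for 8 of the 10 members, and Nrp2 and 1 of the 2 starts of Sema6d also held CTTTG, each with 1 match. Letters in a window are a description and do not show a binding site.

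Sema3g fell. It encodes a secreted ligand that prefers Nrp2 and is known from arterial endothelium and podocytes. Its only probe set (1435361_at) read 376 and 379 in wild-type and 171 and 165 in mutant kidneys. The arrays of each group lay within a few units of each other and the groups were far apart. The mean fell from 378 ± 1.82 (SD, n = 2) to 168 ± 4.43 (n = 2), a log2 difference of -1.10 ± 0.19 (SE) or 2.14-fold lower (limma adjusted p = 0.00992). The call was kept under all 15 alternatives, with log2 differences from -1.17 to -0.93. Podocyte markers moved the same way, with summed signals of 7361 to 7726 in wild-type and 3365 to 3608 in mutant kidneys. Nphs1, which encodes nephrin of the slit diaphragm, read 368 and 337 against 88.9 and 139. Other nephron lists fell as well. The renal vesicle list had 6 of 6 tested genes lower and summed to 15781 to 16442 against 7233 to 7657, the proximal tubule list had 6 of 6 lower with 7368 to 7695 against 465 to 542, and the loop and distal tubule list had 5 of 6 lower with 5918 to 7356 against 1333 to 1409. All 9 endothelial markers had a negative difference, 3 of them past the threshold, and their summed signal was 10248 to 10559.7 against 7668 to 7833, with the defining genes Cdh5 and Pecam1 not past it. The part of these cells in the Sema3g value was not tested. The window before its start (chr14:31217623-31217872, + strand, GRCm38.p6) is shown, capitals as before, to set it beside those of Sema3d and Sema3a.
Sema3g: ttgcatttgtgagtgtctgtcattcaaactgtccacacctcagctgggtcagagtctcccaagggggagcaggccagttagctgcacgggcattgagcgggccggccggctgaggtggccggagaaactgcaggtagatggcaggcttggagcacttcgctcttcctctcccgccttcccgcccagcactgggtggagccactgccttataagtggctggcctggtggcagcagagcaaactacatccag
No CTTTG lay in this window on either strand. It held TATAA once on each strand, 44 and 43 bases before the start in overlapping letters, a match found in 22.8% of all windows, and GGGCGG once, found in 32.7%. Its G and C content was 60.4%. The window of 1 start of Sema6d (chr2:124089719-124089968), a ligand that also rose at 1 probe set, held no CTTTG either. It had 1 match each of TATAA and GGGCGG. Those of Nrp1, Sema3c and Sema5a also lacked CTTTG. The absence of a match says only that these letters are not in this window.

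Sema3f, a ligand of Nrp2 that repels axons and endothelial cells, was lower at 1 of its 3 tested probe sets. That probe set (1425840_a_at) read 1432 and 1245 in wild-type and 889 and 842 in mutant kidneys, a 1.53-fold lower level (log2 difference -0.62 ± 0.12, limma adjusted p = 0.0131). It no longer passed when mutant replicate 2 (-0.58, adjusted p = 0.0760) or the intensity trend (adjusted p = 0.0973) was left out. The brightest, 1438947_x_at, whose suffix marks probes that may match other transcripts, read 1501 and 1422 against 1204 and 1228 (log2 difference -0.26, adjusted p = 0.139). The dimmest, 1420508_at, read 520.2 and 422 against 388 and 405 (-0.23, adjusted p = 0.434). All 3 had lower values on each mutant array than on either wild-type array. The podocyte, nephron and endothelial lists given beside Sema3g moved the same way as Sema3f, and their part in it was not tested. Sema3b, its close relative and near neighbour on chromosome 9 with 3 protein-coding genes between them, is not a member and fell from 517 and 525 to 259 and 281 at its brightest probe set (1.88-fold, adjusted p = 0.0102). Its second tested probe set, with a log2 difference of -0.63, did not pass (adjusted p = 0.246).

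Sema3c, a ligand of both neuropilins and of Plxnd1 that is known to promote ureteric bud branching, had a pair of probe sets that went opposite ways without passing. The brighter (1429348_at) read 2833 and 3261 in wild-type and 3622 and 3554 in mutant kidneys (log2 difference 0.24, 95% interval 0.02 to 0.46, adjusted p = 0.160). The dimmer (1420696_at) read 924 and 1064 against 679.9 and 766 (-0.45, interval -0.75 to -0.15, adjusted p = 0.0631). Neither overlapped between groups, and the log2 ratio of the brighter to the dimmer was 1.60 on each wild-type array and 2.39 and 2.19 in mutant kidneys. The transcripts that each probe set reads were not analysed here. The dimmer passed without wild-type replicate 1 (adjusted p = 0.0195) and the brighter without wild-type replicate 2 (adjusted p = 0.0304), and neither did with the other wild-type array removed (adjusted p = 0.140 and 0.434). The mean over both gave -0.11 (adjusted p = 0.556), so the direction for Sema3c depends on the probe set.

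**Figure D2:**
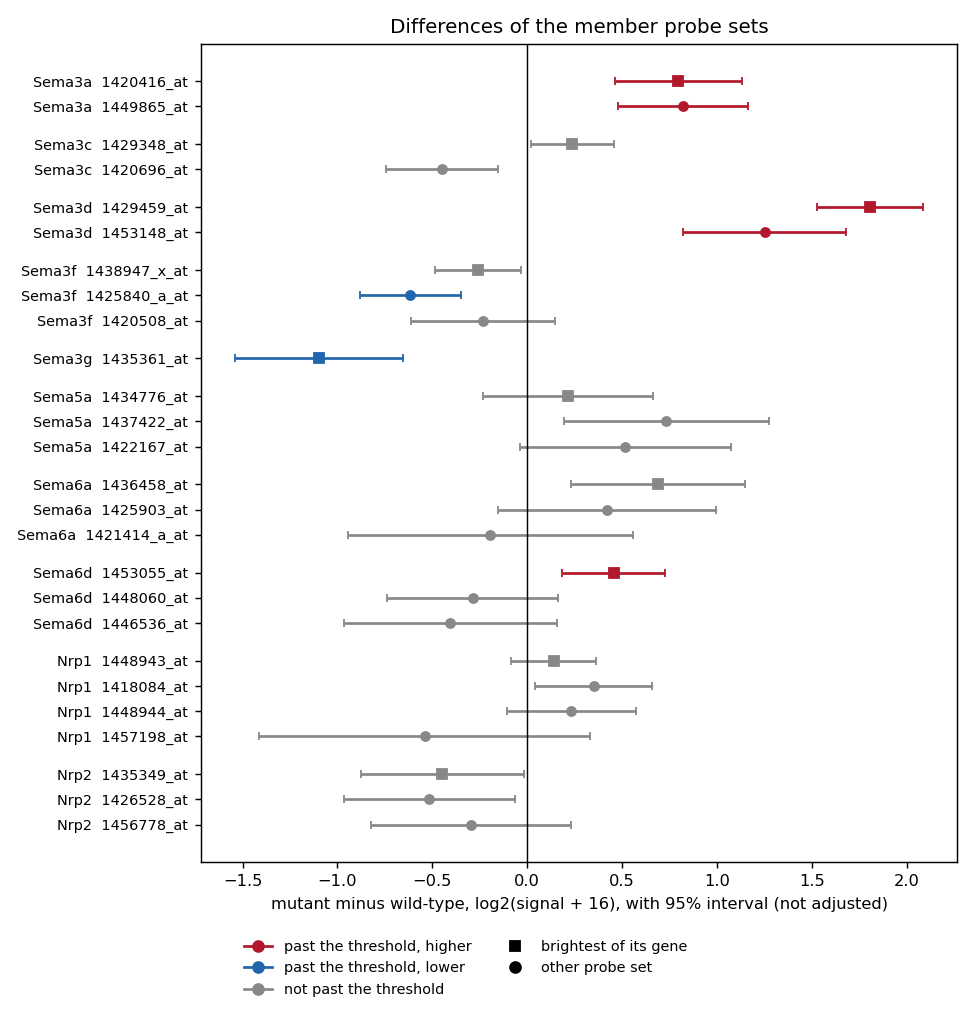
Mutant minus wild-type difference on the log2(signal + 16) scale for each of the 26 tested member probe sets, with its 95% interval before adjustment; squares are the brightest probe set of each gene and colour gives the limma call. Intervals of Sema3d, Sema3a and Sema3g lie clear of 0 at every probe set, and the pair for Sema3c lies on opposite sides of it.

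The 3 membrane-bound members, Sema6d, Sema6a and Sema5a, had positive differences at their brightest probe sets, with 1 past the threshold. Sema6d, a ligand of Plxna1 with a known part in heart development, rose at its brightest probe set (1453055_at), which read 773 and 769 in wild-type and 997 and 1132 in mutant kidneys. This was 1.37-fold (log2 difference 0.46 ± 0.12, limma adjusted p = 0.0448). The other tested probe sets pointed down, with 303 and 310.1 against 224 and 275 (1448060_at, -0.29, adjusted p = 0.420) and 181 and 186 against 137 and 132 (1446536_at, -0.41, adjusted p = 0.350). Within arrays, the log2 ratio of the first to the last was 2.00 and 1.96 in wild-type and 2.73 and 2.96 in mutant kidneys, so the probe sets of this gene changed unequally. The call was lost without mutant replicate 1 (adjusted p = 0.0985), without mutant replicate 2 (0.287), with quantile normalization (0.0591), with median-centred arrays (0.103), without the filter (0.0703) and without the intensity trend (0.150). The mean over the gene's tested probe sets was -0.08 (adjusted p = 0.785). Another, dim probe set (1459318_at) was not tested and read 103 and 38.5 against 90.4 and 140.3.

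Sema6a, which binds Plxna2 and Plxna4 and is known from the migration of neurons, did not pass. Its brightest probe set (1436458_at) read 317 and 239 in wild-type and 499 and 414 in mutant kidneys (log2 difference 0.69, 95% interval 0.23 to 1.15, adjusted p = 0.0644). It passed without wild-type replicate 1 (adjusted p = 0.0138), with median-centred arrays (0.0269) and with the replicate number as a block (0.0464), but not without wild-type replicate 2 (0.50, adjusted p = 0.139). The groups did not overlap there. The second read 209.7 and 153 against 215 and 278 (0.42, adjusted p = 0.346) and the dimmest 88.3 and 119.5 against 83.1 and 93.0, with overlap (-0.19, adjusted p = 0.772).

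Sema5a carries thrombospondin repeats beside its sema domain and can attract or repel axons. None of its 3 tested probe sets passed, and all had positive differences. The brightest (1434776_at) read 871 and 557 in wild-type and 812 and 809.7 in mutant kidneys, so wild-type replicate 1 was the highest and replicate 2 the lowest of the 4. Its log2 difference of 0.21 became 0.53 without wild-type replicate 1 (adjusted p = 0.0285) and -0.10 without wild-type replicate 2 (adjusted p = 0.709). The second (1437422_at) read 227 and 379 against 477 and 522 without overlap (0.73, 95% interval 0.19 to 1.28, adjusted p = 0.0898). It passed without wild-type replicate 2 (1.09, adjusted p = 0.00321), with median-centred arrays (0.0188) and with the replicate number as a block (0.0471), but not without wild-type replicate 1 (0.38, adjusted p = 0.231). The third (1422167_at) read 131 and 134 against 188 and 206 (0.52, adjusted p = 0.225), and another was too dim to be tested, with 54.3 and 89.1 against 76.0 and 86.7.

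The neuropilins, the receptors of the class 3 ligands, did not pass in either direction. Nrp1, which binds Sema3a and VEGF, read 3432 and 4029 in wild-type and 4118 and 4079.6 in mutant kidneys at its brightest probe set (1448943_at). The difference was 0.14 (95% interval -0.08 to 0.36, adjusted p = 0.427). The next, 1418084_at, read 1610.1 and 2012 against 2099 and 2515 (0.35, interval 0.04 to 0.66, adjusted p = 0.146), and 1448944_at read 649.9 and 847 against 858 and 892 (0.23, adjusted p = 0.376). In all 3 the mutant arrays lay above the wild-type arrays, with wild-type replicate 1 the lowest. Without wild-type replicate 2, 1418084_at passed (0.51, adjusted p = 0.0118), and without wild-type replicate 1 it did not (0.19, adjusted p = 0.361). The dimmest, 1457198_at, read 122 and 121 against 53.1 and 113 (-0.54, adjusted p = 0.434), where mutant replicate 1 stood apart.

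Nrp2, which binds Sema3f, Sema3g and VEGF-C and is known from veins and lymphatic vessels, had a negative difference at each of its 3 tested probe sets. The brightest (1435349_at) read 462 and 648 against 413 and 381 (-0.45, 95% interval -0.88 to -0.02, adjusted p = 0.178). The second (1426528_at) read 511 and 371 against 309 and 290.4 (-0.52, interval -0.97 to -0.07, adjusted p = 0.142). The third (1456778_at) read 194 and 228 against 168 and 169 (-0.30, adjusted p = 0.480). No group overlapped, but the wild-type arrays lay far apart at the brighter pair and in opposite order. The brightest passed without wild-type replicate 1 (-0.69, adjusted p = 0.0233) and the second without wild-type replicate 2 (-0.74, adjusted p = 0.0340). With the other wild-type array removed instead, they gave -0.21 (adjusted p = 0.559) and -0.29 (adjusted p = 0.491). Another probe set (1447343_at) was not tested, with 100.4 and 56.8 against 63.5 and 107.

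Plexins, the receptors that carry the signal, were measured beside the members. Of the 9 plexin genes 8 were tested, 2 were higher, 1 lower and 5 did not pass, so that 37.5% were called against 12.5% of all tested genes. Plxnc1, the receptor of Sema7a, read 370.2 and 367 in wild-type and 995 and 928 in mutant kidneys (2.54-fold higher, log2 difference 1.34 ± 0.13, limma adjusted p = 0.000608). Of its 4 further tested probe sets, all with positive differences, 1 passed. Plxna2, a receptor for Sema6a and, with a neuropilin, for class 3 ligands, read 240.3 and 271 against 548 and 539.6 (2.06-fold higher, adjusted p = 0.00596). Its 3 further probe sets had positive differences of 0.22 to 0.56 and did not pass, and the mean over all 4 gave 0.54 (adjusted p = 0.0717). Plxnb2, a receptor of class 4 semaphorins, was 1.35-fold lower, with 3945 and 3285 against 2649.8 and 2682 (adjusted p = 0.0357). That call was lost without wild-type replicate 1 (adjusted p = 0.0604), mutant replicate 1 (0.140) or mutant replicate 2 (0.129), with median-centred arrays (0.126), without the filter (0.0757) and without the intensity trend (0.190).

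The remaining plexins did not pass. Plxna1 read 1166 and 1025 in wild-type and 1221 and 1261 in mutant kidneys (adjusted p = 0.362), and Plxna3 661 and 510.0 against 743 and 938 (adjusted p = 0.0990). Plxna3 passed without wild-type replicate 1 (0.69, adjusted p = 0.0111) but not without wild-type replicate 2 (0.33, adjusted p = 0.212). Plxnb1, the receptor of Sema4d, read 1343 and 1192 against 976 and 1121 (-0.27, adjusted p = 0.199). Plxnd1, the endothelial receptor of Sema3e, read 3198 and 2613 against 2443 and 2640.2 (-0.19, adjusted p = 0.356) and passed without wild-type replicate 2 (-0.33, adjusted p = 0.0440), but without wild-type replicate 1 the difference was -0.041 (adjusted p = 0.875). Plxna4 was near the low end, with 99.4 and 183 against 139 and 92.4 (adjusted p = 0.756), and Plxnb3, a receptor of Sema5a, was too dim to be tested.

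**Figure D3:**
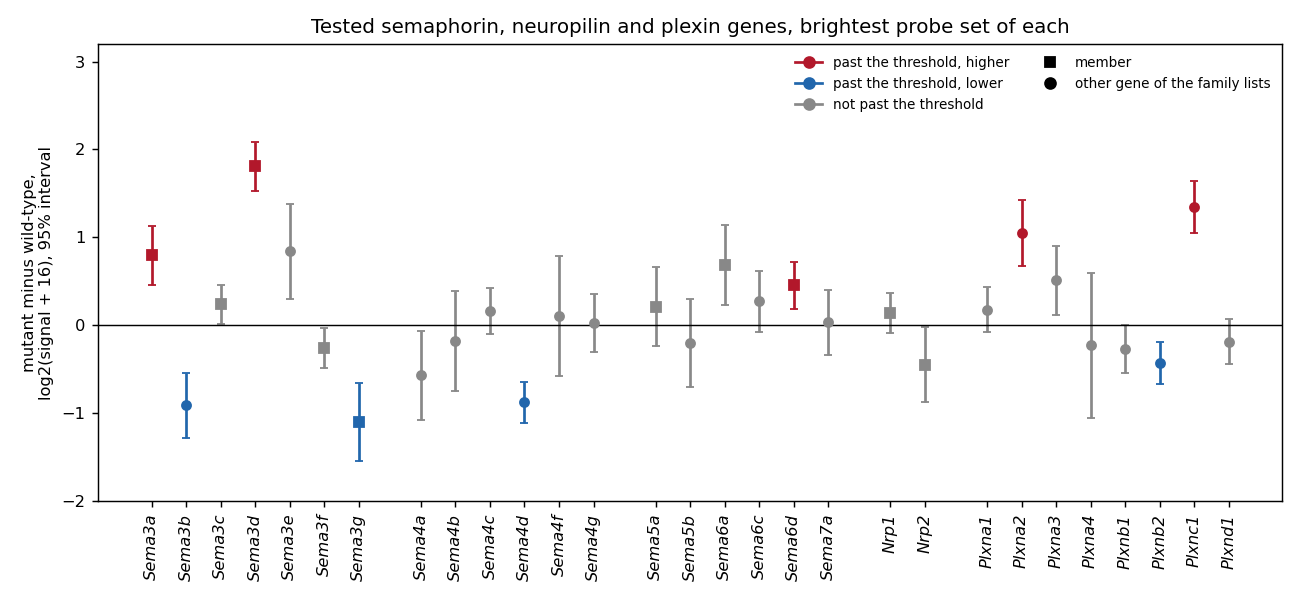
Mutant minus wild-type difference with its 95% interval before adjustment for the brightest probe set of each tested semaphorin, neuropilin and plexin gene, in log2 units; squares are the members, circles the other genes, and colour gives the limma call. Class 3 semaphorins spread from -1.10 for Sema3g to 1.81 for Sema3d, while in class 4 Sema4d (-0.87) and Sema4a (-0.57) lie furthest from 0.

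Of all 20 semaphorin genes on the array 19 were tested, with 3 higher, 3 lower and 13 not past the threshold, against 12.5% of all tested genes called. The median difference over the 19 was 0.11. The 3 higher genes were Sema3d, Sema3a and Sema6d and the lower ones Sema3g, Sema3b and Sema4d. The 8 members among them, proposed with results of these arrays in view, gave 4 of the 6 calls. Of the 12 semaphorins outside the members 11 were tested and 2 passed (18.2%). Sema4d, a membrane ligand of Plxnb1 known from immune cells and endothelium, read 1617 and 1661 against 868 and 906, a 1.83-fold lower level (log2 difference -0.87 ± 0.10, limma adjusted p = 0.00147). The other 5 class 4 genes did not pass, with differences from -0.57 for Sema4a to 0.16 for Sema4c. Sema5b, Sema6c and Sema7a had differences of -0.20, 0.27 and 0.03, and Sema6b was too dim to be tested.

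Growth factors that bind neuropilins were measured too. Of the 8 genes of the VEGF list all were tested, and by the brightest probe set 3 were higher and 0 lower, against 6.7% and 5.82% of all tested genes. Vegfc, a lymphatic growth factor that binds Nrp2, read 361 and 409 in wild-type and 660.0 and 739 in mutant kidneys (1.78-fold, limma adjusted p = 0.0103), with 1 of 2 further probe sets also higher. Leaving out mutant replicate 2 (adjusted p = 0.0731) or the intensity trend (0.0595) ended this call. Vegfd, its relative, read 889 and 597 against 1612 and 1119.6 (1.83-fold, adjusted p = 0.0400), and its 2 further probe sets were also higher. The brightest lost the call without mutant replicate 1 (0.158), without the filter (0.0945), without the intensity trend (0.179) and with the robust fit (0.0681). Pgf, placental growth factor, read 51.3 and 48.1 against 399.7 and 127, so mutant replicate 1 stood far above the rest, and without it the probe set fell under the filter and was not tested. Its adjusted p was 0.0419, and the call was lost with quantile normalization (0.0613), a pseudocount of 64 (0.0502), no filter (0.111) and no intensity trend (0.144). Vegfa at its brightest probe set read 955 and 1009.6 against 995 and 911 (adjusted p = 0.860), whereas a further one (1451959_a_at), chosen after its values were seen, read 552 and 538 against 213 and 313 (2.04-fold lower, adjusted p = 0.0164). The VEGF receptors Kdr, Flt1 and Flt4, all endothelial genes, did not pass, with differences of -0.26, -0.48 and 0.12.

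Downstream of the receptors, of 20 tested effector genes 2 were higher and 0 lower by the brightest probe set, 10% against 12.5% of all tested genes. Dimmer probe sets of 2 further effectors passed, of Rac1, a small GTPase, lower (adjusted p = 0.0493) and of Dpysl4 higher (adjusted p = 0.0179). Dpysl3, of the collapsin response mediator family that acts on microtubules and actin after semaphorin signals, read 736 and 903 against 1579.8 and 1423 (1.82-fold higher, limma adjusted p = 0.00498), with 2 further probe sets that did not pass. Limk1, a kinase that controls actin through cofilin, read 386 and 392 against 593 and 621 (1.54-fold higher, adjusted p = 0.0285), with a further probe set of negative difference that did not pass. Dpysl3 lost the call without the intensity trend (adjusted p = 0.0713). Limk1 lost it there too (0.0757), without mutant replicate 1 (0.114) and without mutant replicate 2 (0.157), and the mean over its probe sets was 0.29 (0.277). Dpysl2, the first known member of that family, read 8081 to 8499.6 over the wild-type arrays and 8276 to 8346 over the mutant arrays. Of 7 tested co-receptor and partner genes 0 passed at the brightest probe set in limma, and 2, Itgb1 and Chl1, had an unadjusted p below 0.05. Dimmer probe sets of Met, the receptor of Hgf, and of Itgb1, an integrin chain, passed: Met read 555 and 483 against 251 and 313 (1.80-fold lower, adjusted p = 0.0219) and Itgb1 4093 and 4082 against 3259 and 3341 (1.24-fold lower, adjusted p = 0.0458). Chl1, an adhesion partner of Nrp1, read 118 and 99.6 against 279 and 181 (0.95, adjusted p = 0.0746).

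Other guidance systems were set beside the semaphorins. Of 12 tested netrin, slit and repulsive guidance genes and receptors 2 were higher and 1 lower, 25.0% against 12.5% of all tested genes. Ntn1, the secreted netrin that is also a stromal gene, rose from 1702 and 1853 to 6001 and 5484 (3.21-fold, limma adjusted p = 5.52e-05), with 1 other probe set not past the threshold. Unc5c, a netrin receptor for repulsion, rose from 1719 and 1607 to 2350.2 and 2263 (1.38-fold, adjusted p = 0.0160). Its call was lost without mutant replicate 1 (0.117) or mutant replicate 2 (0.0818), with median-centred arrays (0.0720), without the intensity trend (0.127) and for the mean over its probe sets (0.0515). Ntn4, a netrin of basement membranes, fell from 197 and 274 to 84.4 and 22.5 (log2 difference -2.0, adjusted p = 0.0310), a call lost without the filter (0.0888) and without the intensity trend (0.119). Both mutant signals lay below the lowest mean kept for testing (94.2), and the difference was -2.69 without mutant replicate 1 and -1.31 without mutant replicate 2. Without either wild-type array the probe set was not tested. Over all 66 tested genes of the pathway lists, 9 were higher and 4 lower, and 53 did not pass, so that 19.7% were called against 12.5% of all tested genes.

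Marker lists that moved with Sema3d, Sema3a and Plxnc1 were those of stroma, skeletal muscle and red blood cells. The 9 stromal markers had a median difference of 1.48, and their summed signal was 30925 to 34283 in wild-type and 52597 to 52646 in mutant kidneys. Foxd1 of the cortical stroma read 2028 and 2393 against 6938 and 6715, and Col3a1, a collagen of all fibroblasts, 14182 and 13632 against 14565 and 14711, not past the threshold (adjusted p = 0.599) at its brightest probe set. A further Col3a1 probe set read 2715 and 3053 against 5055 and 5394 and was higher (1.81-fold, adjusted p = 0.00104). The 8 skeletal muscle markers summed to 1220 to 1796 against 7614 to 7647, and the muscle regulator Myod1 read 164 and 137 against 486 and 485. Myf5 of this list was too dim to be tested and went the other way, with 19.4 and 25.7 against 6.57 and 2.18. Red blood cell markers had 2 of 4 tested genes higher, with a summed signal of 9877 to 10103 against 22186 to 23144. The higher genes were the globins Hbb-y and Hba-x. Most of the sum came from Hbb-y, with 7908 and 7891 against 16223 and 17162. Alas2 and Slc4a1 did not pass in limma (adjusted p = 0.223 and 0.306). Neural and Schwann cell markers had 1 of 4 tested genes past the threshold, Fabp7, which was lower, and summed to 849 to 1246 against 920 to 964. Macrophage markers had 0 of 7 past it in limma, with 0 at an unadjusted p below 0.05. The part of stroma, muscle or any other cell type in the semaphorin values was not tested.

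**Figure D4:**
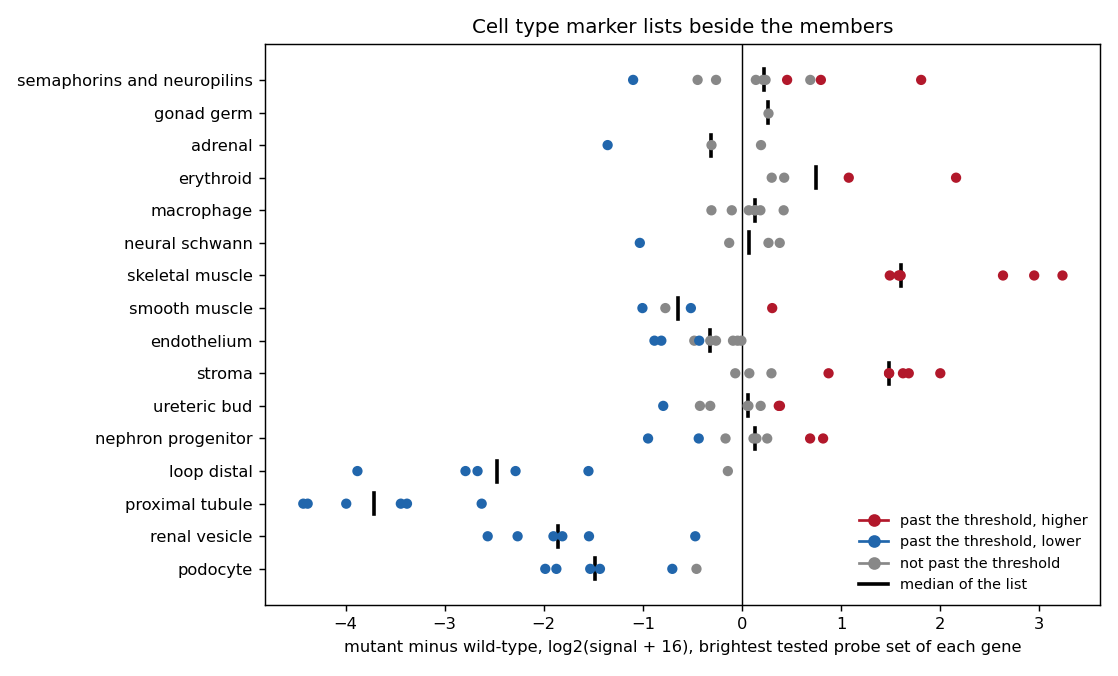
Mutant minus wild-type differences (horizontal axis, log2 units) of the brightest tested probe set of each marker gene, by cell type list, with the members in the top row; points are genes, colour gives the limma call and black bars are list medians. Stroma and skeletal muscle lie to the right with medians of 1.48 and 1.60, nephron and podocyte lists to the left, and the members spread over both sides around 0.23.

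**Figure D5:**
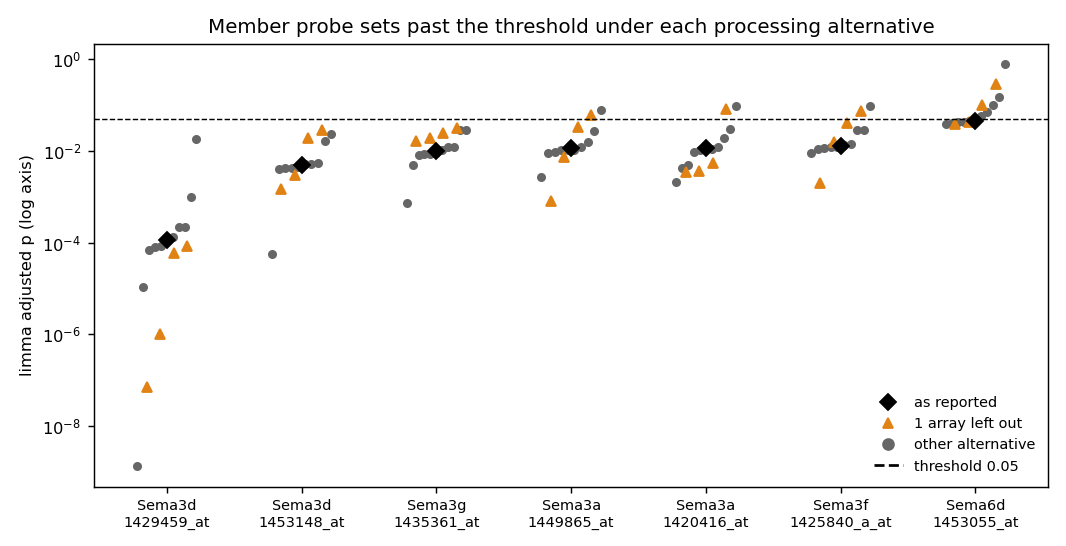
Adjusted p from limma (vertical log axis) of the 7 member probe sets past the threshold, as reported (diamond), with 1 array left out (triangles) and under the other alternatives (circles); the dashed line is 0.05. Points of both Sema3d probe sets and of Sema3g stay below the line, while each of the other 4 probe sets has points above it.

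How the probe sets of a gene compared varied within the family. Of 9 members with at least 2 tested probe sets, 4 had differences of both signs (Sema3c, Sema6a, Sema6d and Nrp1), which is 44.4% against 47.5% of 6010 such genes over the array. Among the 4 such members with a call, 2, Sema3a and Sema3d, were called at every tested probe set, and over the array 16.2% of 1317 genes with a call were. These shares describe the array and were not tested.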

How the data were processed

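RNA from pooled whole kidneys was amplified once, labelled with biotin and hybridised to Affymetrix mouse arrays with 45101 probe sets, per the labels' protocols. The deposited values are a signal intensity per probe set on a linear scale, made by the authors with GCOS, per the submitters' processing notes, with version and summary method not given in the sources used here. The mean of each deposited array after trimming was equal on all 4 arrays, which shows scaling to a common target, and no further normalization was applied. Probe-level files were not used here.

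Probe sets were named through the platform annotation (34958 with 1 gene, 932 with several, 9211 unlisted), of which 34754 were matched to RefSeq by gene ID. After 64 control probe sets and the lowest 40% by mean were left out (lowest mean kept, a signal of 94.2), log2(signal + 16) was fitted in R 4.3.3 with limma 3.58.1 (lmFit, eBayes with an intensity trend), 2 arrays per group, and adjusted by Benjamini-Hochberg. The script was tested on simulated data. Intervals are 95% and unadjusted. A fold on this scale understates changes of dim probe sets, and 2 arrays per group limit the precision. An exact permutation test of 2 against 2 cannot go below p = 0.333. The brightest tested probe set stood for a gene in counts. Every member probe set is reported, with pathway genes past the threshold and all plexins. The members and lists were chosen with earlier results of these data known. Replicate numbers did not pair the arrays (correlation of same-numbered deviations -0.02). In all 15 alternatives were run. Probe sets of a gene can read different transcripts or, with names ending in _x_at or _s_at, related genes.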

Additional observations from a re-analysis of the deposited data

How the results depend on the processing

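Alternatives were quantile normalization, centring on medians, pseudocounts of 1 and 64, no filter or the lowest 60% left out, no intensity trend, robust eBayes, no _x_at and _s_at probe sets, the replicate block, the mean over probe sets and each array left out. Of 102 alternative values for member probe sets past the threshold 89 kept direction and call, 12 lost the call and 1 reversed. Of 261 for those not past it 246 were unchanged in these respects, 13 passed and 2 reversed. The cause was not tested for any change. Over all tested probe sets, more passed than reported when either wild-type array was left out, and fewer when either mutant array was. The part of this array-wide shift in calls gained or lost at single probe sets was not tested. Without the trend, 858 probe sets passed, with 1 lower and 2 higher among member probe sets, 1 higher among member genes, and 2 lower and 3 higher among pathway genes. Without the filter 2 pathway genes were lower, and without _x_at and _s_at probe sets 2 member genes were, since Sema3f was then represented by another probe set. With 1 array left out, a lone array being assumed to vary like the other group, 1572 to 4008 probe sets passed. Member probe sets then numbered 1 to 4 lower and 3 to 8 higher, member genes 1 to 2 lower and 1 to 5 higher, and pathway genes 2 to 4 lower and 4 to 13 higher. With the replicate block, 2913 probe sets passed, with 3 lower and 7 higher member probe sets, 1 lower and 4 higher member genes, and 4 lower and 11 higher pathway genes. Sema3c (1420696_at, adjusted p = 0.0499), Sema6a and Sema5a were added; the replicate numbers do not pair the arrays (correlation -0.02).

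Directions reversed for the mean over probe sets in Sema3c (-0.11), Sema6d (-0.079) and Plxna1 (-0.12). With 1 array left out, log2 differences crossed 0 in genes not past the threshold as reported. They ran from -0.10 (without wild-type replicate 2) to 0.53 for Sema5a (1434776_at), from -0.25 (without wild-type replicate 1) to 0.46 for Sema4f and from -0.62 to 0.17 (without wild-type replicate 2; 0.030 without mutant replicate 2) for Plxna4. They ran from -0.093 (without mutant replicate 1; -0.012 without wild-type replicate 2) to 0.15 for Sema4g, from -0.45 to 0.097 (without mutant replicate 1; 0.058 without wild-type replicate 2) for Sema4b, from -0.43 to 0.020 (without mutant replicate 1) for Sema5b and from -0.016 (without wild-type replicate 2) to 0.085 for Sema7a. The cause of these crossings was not tested, and no value here separates genotype from strain or pool size.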
